A study of Mus musculus with 6 samples.

Results

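The genes described are 10 antiviral effectors that type I interferon induces: the oligoadenylate synthetase genes Oas1a, Oas1g, Oas2 and Oas3, the related Oasl1 and Oasl2, the GTPase genes Mx1 and Mx2, Rsad2, and Zbp1. They were chosen by symbol, from their known function, with earlier results of these data known. They make up 10 of the 19436 genes in the deposited table. RNA came from C57BL/6 mouse fetal livers at stage E14.5, sorted for medium CD71, the surface receptor for transferrin, and absence of Ter119, a marker of maturing red cells. The labels call this gate R1 and its cells erythroid precursors. The 3 libraries labelled -77-/- lacked, on both alleles, an enhancer far upstream of Gata2, a gene for a regulator of blood progenitors, and the 3 wild type libraries (-77+/+) carried it. The deletion is in the germline, so every cell of the embryo lacks the enhancer, and neither genotype received a treatment. Each library started from 10 ng of RNA and was read as single 50 nt reads. Whether separate embryos gave the libraries is not stated, so p-values here reflect only how far these samples spread, which may be technical.

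Interferon binding activates the JAK kinases, which phosphorylate transcription factors of the STAT family. These join IRF9 and bind the interferon-stimulated response element, a DNA motif with spaced GAAA repeats, at the genes described here. Active OAS enzymes sense double-stranded RNA and make short 2'-5' linked adenylates as second messengers that lead to the decay of viral and cellular RNA. MX proteins trap viral nucleocapsids, viperin (from Rsad2) makes a modified nucleotide that stops viral polymerases, and ZBP1 senses Z-form nucleic acid and can start cell death through RIPK3. C57BL/6 mice, like most laboratory strains, carry a defective Mx1 allele, so its RNA does not give the working protein.

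Of the 10 genes, 6 had a promoter in the RefSeq table for GRCm38.p6, which spans 250 bases before to 50 after each start. The motif GAAANNGAAA, the core of the interferon-stimulated response element, was searched on both strands, with overlapping matches kept. It was in 4 of the 6 (Oas1a, Oas1g, Oas3 and Rsad2) and in 3.44% of all 32851 promoters in the table. The windows of Oasl1 and Oasl2 did not hold these letters. The 4 windows with a match are shown because they share the motif, with the matched bases in capitals, each read 5' to 3' on the gene's strand.
Oas1a, chr5:120907526-120907625, minus strand: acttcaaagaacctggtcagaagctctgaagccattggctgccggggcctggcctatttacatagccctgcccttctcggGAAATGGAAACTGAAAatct
Oas1g, chr5:120887614-120887713, minus strand: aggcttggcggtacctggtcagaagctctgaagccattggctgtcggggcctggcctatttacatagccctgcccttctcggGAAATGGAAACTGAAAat
Oas3, chr5:120777660-120777759, minus strand: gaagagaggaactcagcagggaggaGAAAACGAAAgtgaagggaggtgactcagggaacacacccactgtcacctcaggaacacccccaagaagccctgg
Rsad2, chr12:26456483-26456582, minus strand: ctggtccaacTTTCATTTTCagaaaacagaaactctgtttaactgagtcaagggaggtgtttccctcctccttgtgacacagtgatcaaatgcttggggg

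In Oas1a and Oas1g the capitals cover a pair of overlapping matches, which began 20 and 14 bases before the start in Oas1a and 18 and 12 bases before it in Oas1g. Over the whole 300-base promoters, Oas1a and Oas1g were identical at 85.3% of 306 alignment columns, against 43.7% for Oas1a and Oas3 and 45.9% for Oas1a and Rsad2. In Oas3 the match lay 75 to 66 bases before the start. The Rsad2 match lay 120 to 111 bases before the start and read in the opposite direction, so it appears as TTTCNNTTTC.

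Recovered reads, which are the deposited values multiplied back by each library's size factor, came to 16516338 to 20468899 per library. In these values 3 reads correspond to 2.56 to 3.42 normalized reads. Across genes (not independent replicates) the log2 values of a pair of libraries had a Pearson's r of 0.880 to 0.939 for a shared genotype and of 0.790 to 0.853 otherwise. Gata2 itself had 128, 87.8 and 61.5 normalized reads in wild type and 74.2, 26.2 and 34.2 in -77-/-, and the groups overlapped (log2 fold change -1.10, limma adjusted p = 0.18). Of 13 measured red cell markers, 12 fell in -77-/-, and their summed level went from 48237 to 51947 in wild type to 3307 to 7988 in -77-/-. By these markers the label of erythroid precursors holds less well for the -77-/- libraries than for wild type.

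The antiviral genes were low in every wild type library. All but Oas1g were higher in every -77-/- library than in any wild type library. The gap was smallest for Oasl1 (97.6 in -77-/- replicate 1 against 51.6 in wild type replicate 1). Of the 10, 9 were higher in -77-/- and none was lower in the limma test, at a Benjamini-Hochberg adjusted p of 0.05 over 15821 genes. In the same test 16.9% of all tested genes were higher and 15.2% lower, 32.2% in all (2681 higher and 2410 lower, or 2666 and 1440 after scaling to the same upper quartile). On recovered reads, edgeR and limma-voom also called 9 of the 10 higher, against 14.6% and 16.1% of all tested genes, and DESeq2 called 10, against 17.3%. All 10 also had an adjusted p under 0.05 and a higher level in -77-/- in the authors' deposited table. The 3 -77-/- values lay above the 3 wild type values for 9 of the 10, against 25.0% of all tested genes. Their summed level was 165, 132 and 118.5 normalized reads in the wild type libraries, numbered 1 to 3, and 2858, 4382 and 2766 in the -77-/- libraries, a ratio of means of 24.1. The median log2 fold change was 4.95, against 0.10 for all tested genes. It was 5.15 with Oas1g at the lower bound from its summed reads, which was taken without a pseudocount. Genes entered the test with a mean of at least 10 in the higher genotype, and 5 of the 10 reached that mean in wild type. The others entered through the genotype in which they were high, so neither the count nor the median is support for a difference. Fold changes compare -77-/- with wild type after taking log2(value + 1), which understates changes from very low values.

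**Figure D1:**
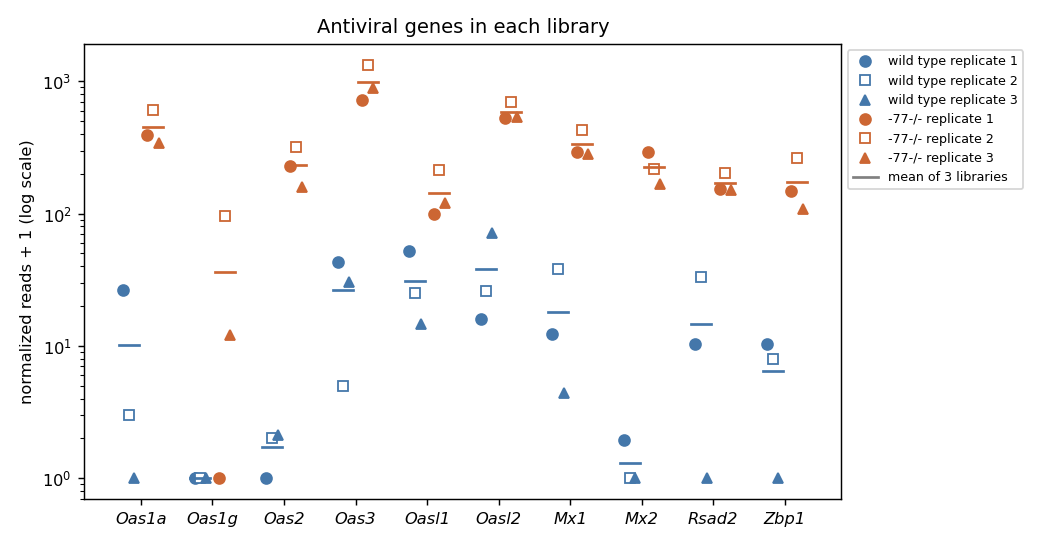
Normalized reads plus 1 (log axis) of each antiviral gene in the 6 libraries, with blue symbols for wild type, orange for -77-/-, a symbol shape for each replicate number and bars for the mean of 3 libraries. The 3 -77-/- values lie above the 3 wild type values for every gene but Oas1g, which was at 0 in all wild type libraries and in -77-/- replicate 1.

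Among the synthetases, Oas1a encodes an active enzyme with a single catalytic unit. Its RNA had 25.3, 2.0 and 0 normalized reads in the wild type libraries and 393, 609.5 and 341 in the -77-/- libraries, in the order of their numbers, as for every gene that follows. The lowest -77-/- library was far above the highest wild type library, and wild type replicate 1 held most of the wild type reads. Oas1a rose by 6.66 ± 1.01 on the log2 scale (limma estimate with its SE, adjusted p = 2.1e-04). This became 7.97 without wild type replicate 1 and 5.61 without wild type replicate 3.

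Oas1g encodes another active mouse enzyme of the same type. It had no read in any wild type library, and 0, 95.3 and 11.1 normalized reads in -77-/- replicates 1 to 3, or 0, 98 and 13 reads. The groups overlapped at 0, and -77-/- replicate 2 carried most of the signal. Set against 3 reads over the wild type group, the reads summed over the -77-/- group were at least 34.2-fold higher. This bound does not hold for -77-/- replicate 1, which had no read. The limma test did not pass (log2 fold change 3.40 ± 1.78, adjusted p = 0.16). Without -77-/- replicate 1 it passed, with 5.09 and an adjusted p of 0.032. Without -77-/- replicate 2 the mean fell under 10 and Oas1g could not be tested. DESeq2 on recovered reads called it (log2 fold change 7.56, adjusted p = 0.0031), and in the authors' deposited table it had 9.88 with an adjusted p of 0.0069.

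Assignment of reads within the Oas1 group is uncertain. In the reference transcripts (GENCODE M21), 57.6% of the 50-base windows of Oas1a also occur in Oas1g or Oas1b, and 45.7% of those of Oas1g occur in Oas1a or Oas1b, so reads of this length could be split between the copies. Summed over Oas1a and Oas1g, wild type had 25.3, 2.0 and 0 normalized reads and -77-/- had 393, 705 and 352. The sum did not overlap between genotypes, and the ratio of means was 53.1. With Oas1b included, the ratio was 25.8.

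Oas2, whose enzyme carries a repeated OAS unit, was nearly silent in wild type. It had 0, 0.998 and 1.14 normalized reads in wild type, which is 2 reads in all, and 227, 319 and 157 in -77-/-. The ratio of reads was 340 (exact 95% interval 93.8 to 2813, counting error only). Oas2 rose by 7.12 ± 0.96 (limma adjusted p = 4.0e-05), between 6.77 and 7.38 with a library left out. None of its 50-base windows occurs in another gene.

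Oas3 encodes the longest synthetase. It had 42.2, 3.99 and 29.6 normalized reads in wild type and 723, 1337 and 893 in -77-/-. Wild type replicate 2 was the lowest library, near the floor of 3 reads, and every -77-/- library was far above all wild type libraries. Oas3 rose by 5.67 ± 0.76 (limma adjusted p = 5.7e-04), with 6.27 without wild type replicate 1 and 4.71 without wild type replicate 2.

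Oasl1 and Oasl2 lie next to each other and encode OAS-like proteins with ubiquitin-like tails. Mouse OASL1 has lost synthetase activity and limits translation of Irf7 mRNA, whereas mouse OASL2 is an active enzyme. Oasl1 had 51.6, 23.9 and 13.7 normalized reads in wild type and 97.6, 212 and 119.5 in -77-/-. This was the smallest gap of the 9 genes that did not overlap, with -77-/- replicate 1 nearest to wild type replicate 1. Oasl1 rose by 2.35 ± 0.63 (limma adjusted p = 0.0099), and without -77-/- replicate 2 it did not pass (2.02, adjusted p = 0.086). Its estimate was lowest, 1.91, without wild type replicate 3, and highest, 2.83, without wild type replicate 1. Exons of Oasl1 overlap those of Gm13822 on the opposite strand, and the strand setting of the authors' counting was not given, so reads from that gene cannot be told apart from reads of Oasl1.

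Oasl2 had 15.0, 24.9 and 70.7 normalized reads in wild type and 532, 702 and 538 in -77-/-. The -77-/- libraries lay close together, with a highest-to-lowest ratio of 1.32, the smallest of the 9 genes with reads in all 3. Oasl2 rose by 4.24 ± 0.49 (limma adjusted p = 8.3e-06), which became 4.85 without wild type replicate 3.

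Mx1 encodes the nuclear MX protein of mice, which blocks influenza viruses in strains with a working allele. It had 11.3, 36.9 and 3.42 normalized reads in wild type and 293, 427 and 282 in -77-/-. Wild type replicate 2 was the highest wild type library and still far below every -77-/- library. Mx1 rose by 4.69 ± 0.71 (limma adjusted p = 1.1e-04), with 5.48 without wild type replicate 2 and 3.93 without wild type replicate 3.

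Mx2 encodes the cytoplasmic MX protein of mice. It had 0.938, 0 and 0 normalized reads in wild type, a single read in replicate 1, and 294, 217 and 167 in -77-/-. The ratio of reads was 655 (exact 95% interval 117 to 25911, counting error only). Mx2 rose by 7.47 ± 1.00 (limma adjusted p = 3.7e-05), between 7.26 and 7.79 with a library left out. GENCODE lists Mx2 as a polymorphic pseudogene, and RefSeq lists both Mx1 and Mx2 as transcribed pseudogenes in this strain. Of the 50-base windows of Mx1, 4.37% occur in Mx2 or other gene models, and 4.38% of those of Mx2 occur in Mx1, so most windows separate them.

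Rsad2 encodes viperin, an enzyme of the endoplasmic reticulum and lipid droplets. It had 9.38, 31.9 and 0 normalized reads in wild type and 153, 202 and 150.3 in -77-/-. The wild type libraries spread from 0 to 31.9, while the -77-/- libraries were within a ratio of 1.35. Rsad2 rose by 4.58 ± 1.07 (limma adjusted p = 0.0046), with 5.70 without wild type replicate 2 and 3.18 without wild type replicate 3.

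Zbp1 encodes the Z-form nucleic acid sensor. It had 9.38, 6.98 and 0 normalized reads in wild type and 146, 262 and 108 in -77-/-. Its -77-/- libraries had a highest-to-lowest ratio of 2.44, the widest of the 9 genes with reads in all 3, and none came near the wild type level. Zbp1 rose by 5.21 ± 1.00 (limma adjusted p = 9.4e-04), with 5.84 without wild type replicate 1 and 4.15 without wild type replicate 3.

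**Figure D2:**
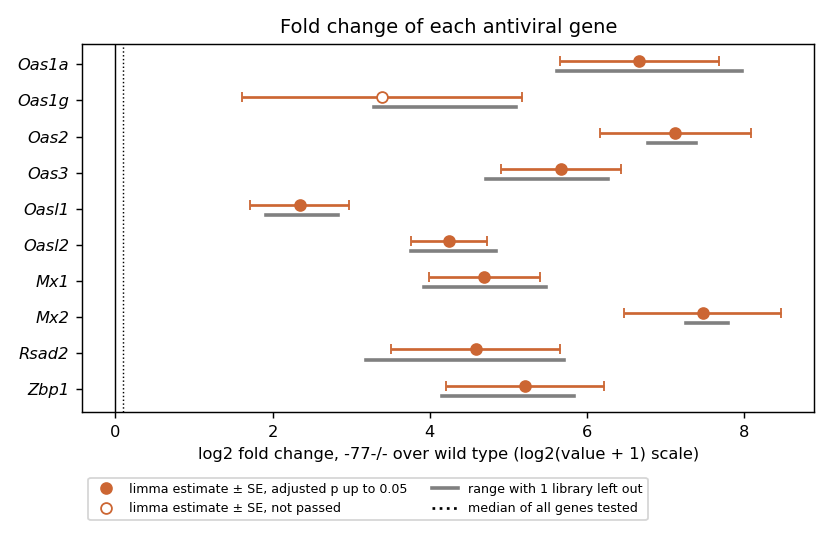
Log2 fold change (-77-/- over wild type, log2(value + 1) scale) of each antiviral gene with its limma standard error, filled where the adjusted p was up to 0.05, and below it in grey the range with 1 library left out. All 10 estimates lie above the dotted median of all tested genes, from 2.35 for Oasl1 to 7.47 for Mx2.

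To compare levels between the genes, normalized reads were divided by the length of each gene's merged exons in kilobases. In -77-/-, Oas1a had the highest level per kilobase (238 ± 75.6, SD, n = 3), followed by Oas3 (139 ± 44.8), Oasl2 (92.6 ± 15.1), Mx1 (88.2 ± 21.3) and Mx2 (62.5 ± 17.6). Oasl1 (54.8 ± 23.3), Oas2 (52.6 ± 18.2), Zbp1 (48.8 ± 22.8), Rsad2 (38.8 ± 6.77) and Oas1g (15.2 ± 22.3) came after them. The places of Oas1a and Oas1g rest on the uncertain assignment of reads within the Oas1 group. The ranges of the -77-/- libraries overlapped for every neighbouring pair in this order. The genes were measured in the same libraries, and differences between genes within a library were not tested. In wild type the order was another: Oasl1 had the highest level per kilobase (11.4 ± 7.52), and Oas2 (0.160 ± 0.14) and Mx2 (0.0865 ± 0.150) were near 0. Oasl1 also had the smallest fold change of the 9 genes that rose, and Mx2 and Oas2 had the largest with a pseudocount of 1. With a pseudocount of 10, Oas3 (4.97) and Oas1a (4.78) were above Mx2 (4.48) and Oas2 (4.46), and without wild type replicate 1 Oas1a (7.97) was above both.

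Most of the genes were highest in the same -77-/- library, and whether they vary together was not tested. Replicate 2 had the highest value of the 3 -77-/- libraries for 9 of the 10 genes, against 32.4% of all tested genes, and Mx2 was highest in replicate 1. Among the 9 genes with reads in all 3 -77-/- libraries, the highest-to-lowest ratio ran from 1.32 for Oasl2 to 2.44 for Zbp1, and Oas1g went from 0 to 95.3. In wild type, replicate 1 was highest for 5 genes and replicates 2 and 3 for 2 each. Wild type replicate 3 had no read for 5 of the 10, and it was also the library with the fewest reads and the fewest genes with a read (14847). Only 4 of the 10 genes had reads in all 3 wild type libraries.

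Markers of some other blood cells were also higher in -77-/-. Of 14 monocyte and macrophage markers, 13 rose in -77-/-, none was at 0 in all 3 wild type libraries, and their summed level went from 1886 to 3085 normalized reads in wild type to 29307, 40704 and 32389 in -77-/- replicates 1 to 3. It was highest in replicate 2, as were the antiviral sum and the summed T and NK cell markers (411, 451 and 365). The summed plasmacytoid dendritic (9984, 9101 and 9598) and B cell markers (5783, 3180 and 3590) were lowest there. Whether these orders are related was not tested. Of 13 measured plasmacytoid dendritic cell markers, 9 rose (1752 to 1975 against 9101 to 9984), and 3 of these markers (Bst2, Tlr7 and Tlr9) are also in the pathway lists described next. Conventional dendritic cell markers had 6 higher and 1 lower of 11 (719 to 985 against 2733 to 2997), neutrophil markers 5 higher and 4 lower of 12 (median log2 fold change -0.24), and B cell markers 6 higher of 9 (1077 to 1284 against 3180 to 5783). The neutrophil sum was 14417 to 25126 against 44992 to 48944, of which Mpo alone made up 8529 to 14749 and 37033 to 40756. Of 10 measured T and NK cell markers, 5 were tested and 1 rose. Their summed level was 252 to 510.5 in wild type and 365 to 451 in -77-/-, and Gzma and Tbx21 were at 0 in all wild type libraries. Megakaryocyte markers had 1 higher and 2 lower of 7, and endothelial and stromal markers 2 higher of 5 tested. None of 5 tested hepatocyte markers passed in limma, also before adjustment. Their sum was 48.9 to 207 in wild type and 93.5, 116 and 990 in -77-/- replicates 1 to 3, with Fgb at 0 in all wild type libraries. The part of these cell types in the antiviral levels was not tested. In bulk RNA, fewer cells of a type and less RNA per cell cannot be told apart.

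Oas1b and Oas1c, the other genes of the Oas1 group that were tested, did not pass. Oas1d, Oas1e, Oas1f and Oas1h had no match among the genes analysed here. Oas1b, a flavivirus resistance gene that C57BL/6 carries in truncated form, had 34.7, 2.99 and 0 normalized reads in wild type and 162, 29.2 and 35.9 in -77-/-. The groups overlapped, since wild type replicate 1 was above -77-/- replicate 2, and the test did not pass (log2 fold change 3.44, limma adjusted p = 0.057). Oas1c had 19.7, 0 and 0 in wild type and 0, 19.4 and 35.0 in -77-/- (1.72, limma adjusted p = 0.48). Neither of the 2 passed in limma, edgeR, DESeq2 or limma-voom, and 1 was under 0.05 in limma before adjustment. Without wild type replicate 1, limma called 1 of the 2.

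Of the genes acting on the response to oligoadenylates, 2 are reported, with a median log2 fold change of -0.91. Abce1, which dampens that response and recycles ribosomes, fell by 0.79 on the log2 scale (limma adjusted p = 0.0025), and Pde12, a phosphodiesterase that degrades 2'-5' adenylates, fell by 1.04 (limma adjusted p = 2.8e-04). Among 5 partners of ZBP1 in cell death, 3 rose: Mlkl, the pore-forming effector (48.2 ± 30.5 to 485 ± 64.2, log2 fold change 3.52), Casp8 (1.34) and Ripk1 (0.63). Ripk3, the kinase that ZBP1 binds directly, had 499 ± 61.4 and 614 ± 32.7 and did not pass (0.30, limma adjusted p = 0.24), nor did Fadd.

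The ligands were scarcely measured. Of 13 interferon genes listed, 11, among them Ifnb1 and the listed Ifna genes, had no match among the genes analysed here and were not tested. Ifng had 6 reads and Ifnk 22 reads over the 3 -77-/- libraries, none in -77-/- replicate 1 and none in wild type, and both were too low to test. Of 11 receptor and signalling genes, 5 rose, none fell and 6 did not pass, with a median log2 fold change of 0.87. Both chains of the type I receptor rose, Ifnar1 from 518 ± 13.7 to 1441 ± 55.0 and Ifnar2 from 514 ± 35.8 to 2066 ± 353. Irf9 rose by 1.03. Stat2, whose product binds IRF9, had 1.27 and did not pass (limma adjusted p = 0.058). In the authors' deposited table Stat2 had 1.27 with an adjusted p of 0.016. Of the JAK kinases, Tyk2 rose from 391 ± 49.1 to 715 ± 48.3 (log2 fold change 0.87, limma adjusted p = 0.0026). Jak1 and Jak2, kinases shared with many cytokine receptors, had -0.17 and -0.25 and did not pass.

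Of 15 sensors and adaptors of nucleic acid sensing, 10 rose and 5 did not pass (median 2.74). Dhx58, an RNA helicase related to RIG-I, had 15.0, 9.98 and 0 normalized reads in wild type and 167, 270 and 209 in -77-/-, and rose by 5.24. Irf7, the factor whose translation OASL1 limits, had 44.1, 32.9 and 3.42 in wild type and 349, 383 and 300 in -77-/-, and rose by 4.18 (limma adjusted p = 0.0010). Ddx58, which encodes RIG-I, rose by 2.48, and the adaptors Mavs and Ticam1 and the kinase Tbk1 did not pass. Of 7 genes that restrain the response, 6 rose and Trex1 did not pass (median 2.71). Usp18, which blocks signalling at IFNAR2, rose from 8.19 ± 11.7 to 103 ± 26.9 (4.51). Of 28 other interferon-stimulated genes, 23 rose, none fell and 5 did not pass (median 2.49), among them Ifit3 (5.82), Isg15 (4.75) and Gbp2 (6.29) with limma adjusted p-values of 0.0013, 0.0037 and 1.4e-04. Isg20 (-1.36), Ifi44 (0.49) and Cxcl10 (1.38) were among the 5. In 19 of these 28, -77-/- replicate 2 was the highest -77-/- library.

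**Figure D3:**
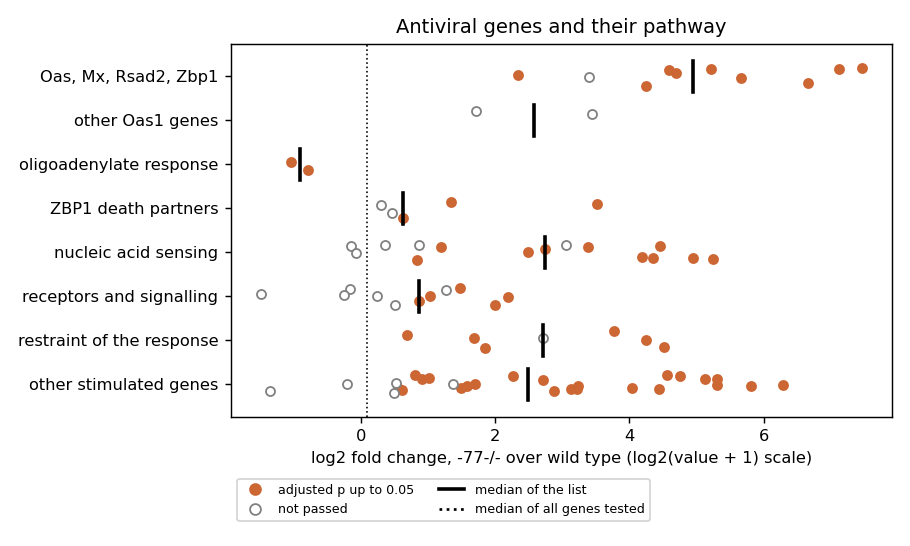
Log2 fold change (-77-/- over wild type, log2(value + 1) scale) of the antiviral genes and of the genes in each pathway list, filled where limma's adjusted p was up to 0.05, with a bar for each list's median. The antiviral genes have a median of 4.95, the other interferon-stimulated genes 2.49, and receptors and signalling genes 0.87, beside the dotted median of 0.10 of all tested genes. In these lists 5 of 10, 22 of 28 and 10 of 11 genes had a mean of at least 10 in both genotypes. The others entered through the genotype in which they were high, so the order of the medians is not support for a difference between lists.

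By location, the Oas and Oasl genes lie on chromosome 5, the Mx pair on chromosome 16, Rsad2 on chromosome 12 and Zbp1 on chromosome 2, so the 10 genes occupy 5 separate loci. The 3 nearest measured genes on each side of each locus give 30 neighbours, of which 23 were tested. Among these, 3 rose, 1 fell and 19 did not pass, with a median log2 fold change near 0. Of all tested genes, 16.9% were higher and 15.2% lower. The 3 neighbours that rose were Id2, near Rsad2 (3.34), B3galt5, near Mx1 (4.76), and C2cd2, beyond Mx2 (0.98). The 1 that fell was Rpl6, near Oas1a (-0.49). Cmpk2, the nucleotide kinase gene beside Rsad2 that interferon usually induces together with it, had 688, 445 and 603 normalized reads in wild type and 397, 670 and 458 in -77-/-. The groups overlapped fully and Cmpk2 did not pass (-0.20, limma adjusted p = 0.55), beside the rise of 4.58 in Rsad2.

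**Figure D4:**
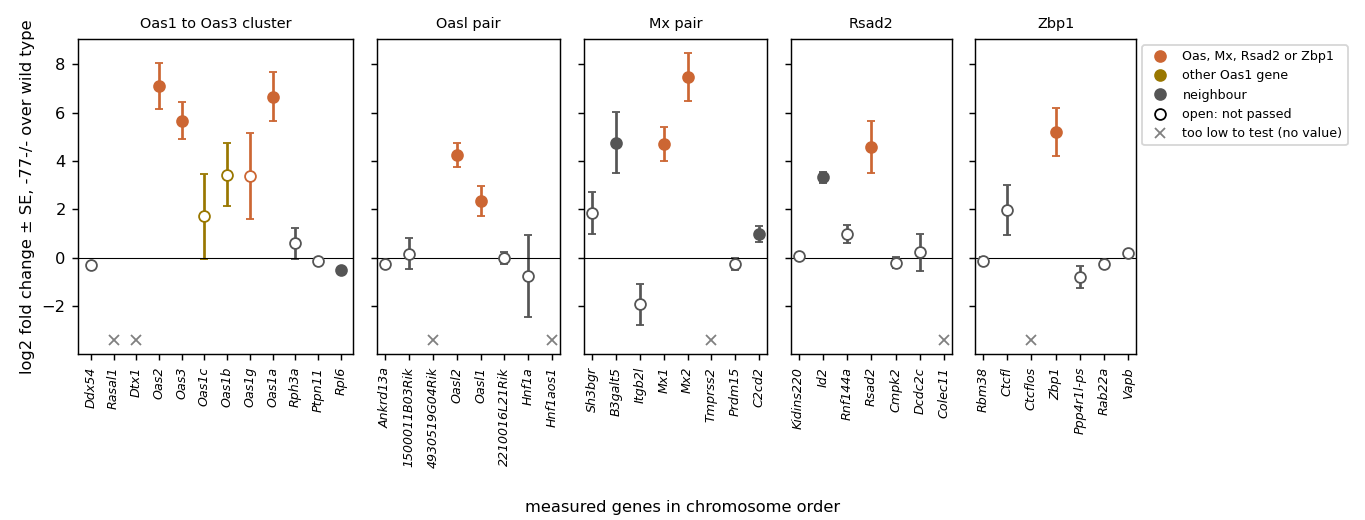
Log2 fold change with its standard error (-77-/- over wild type) of the measured genes at each of the 5 loci, in chromosome order, with the antiviral genes in orange, other Oas1 genes in olive and the 3 nearest measured neighbours on each side in grey, filled where limma's adjusted p was up to 0.05 and a cross where a gene was too low to test. At each locus most tested neighbours lie below the antiviral genes, but B3galt5 (4.76) lies slightly above Mx1 (4.69), and Id2 (3.34) is the next highest neighbour that passed.

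Likeness of profile was measured as Pearson's r over the 6 libraries with the mean of the 10 genes' standardized log2 values. The most alike genes outside the 10 were Ikbkb (0.999), Adamts10 (0.999), Creld2 (0.998), Zeb2 (0.997), P4ha1 (0.997), Stap1 (0.996), Kif21b (0.995), Vps37b (0.995), Aim2 (0.995) and B630005N14Rik (0.994). Ikbkb encodes a kinase that activates NF-kappaB, and Aim2 a sensor of cytosolic DNA. All genes were compared over the same 6 libraries, which differ in genotype and depth. Of all tested genes, 12.3% had an r of at least 0.9, so these values describe the 6 libraries only. The antiviral genes' own r with their mean ran from 0.758 for Oas1g to 0.977 for Mx2.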

How the data were processed

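RNA was measured in 6 libraries, 3 per genotype, each placed in its genotype by its label. Replicate numbers follow record order. Per the submitters' processing notes, STAR 2.5, Bowtie, RSEM 1.2.31 and DESeq2 were run against mm9. For annotation and strand, the setting is not given in the sources used here. Each of the 6 library columns holds a normalized signal, gene counts that the authors divided by a size factor per library (0.878 to 1.17), and a further column holds their mean per gene. All values (100%) were whole multiples of a library's step within 0.01 read, so whole reads were recovered. The authors' deposited log2 fold changes and adjusted p-values (handled as a score, since cells of 8 rows are moved sideways) served for comparison only, and those 8 of 19444 rows were left out.

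As the values were normalized, limma 3.58.1 (R 4.3.3; trend, robust) was run on log2(value + 1), on 15821 genes with a mean of at least 10 in the higher genotype, adjusted over all of them at 0.05. It was tested on simulated data. SDs are over 3 libraries. Alternatives were edgeR 4.0.16, DESeq2 1.42.0 and limma-voom on recovered reads, other pseudocounts, filters and scalings, and each library left out. Intervals and the 3-read floor cover counting error only and treat the recovered counts as observed reads. Exon lengths and repeated windows came from GENCODE M21 (GRCm38), which may differ from the authors' annotation. The text names the 10 genes, genes of the pathway lists, called neighbours and the 10 most alike genes. Members and lists were chosen with earlier results of these data known. Some genes of the pathway lists are not reported here and were left out of their lists' counts.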

Additional observations from a re-analysis of the deposited data

How the results depend on the processing

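The fold changes of the antiviral genes and the counts of called genes (antiviral genes, pathway lists and all genes) were recomputed under 15 alternatives, 14 for Oas1g. Marker lists, neighbours, overlap counts, levels per kilobase and likeness were not. Of 149 fold changes of the antiviral genes, 146 kept their call and direction and 0 reversed. Oasl1 lost its call without -77-/- replicate 2, and Oas1g gained one with DESeq2 and without -77-/- replicate 1. The number called of the 10 was 9 under every pseudocount, filter and scaling tried and with edgeR and limma-voom, 10 with DESeq2, and 8 to 10 with a library left out. Sizes depended on the pseudocount where wild type was near 0: Mx2 had 9.98 with a pseudocount of 0.1 and 4.48 with 10, and Oas2 had 8.77 and 4.46. Of 150 counts, 147 stayed within 1.5 times. The others were the count of Oas1b and Oas1c called, 0 in the main test, which became 1 with a pseudocount of 10, 1 without a filter, and 0 to 1 with a library left out. Scaling to the same upper quartile moved the median of all genes by 0.13 and gave 2666 higher and 1440 lower genes (64.9% higher of those called), against 2681 and 2410 (52.7%) as deposited. No paired analysis was possible because the replicate numbers follow the order of the records and pair no libraries. Depth limits the lowest genes: with 0 reads in a genotype the fold is a bound against 3 reads, and with 1 to 3 reads its ratio has a wide interval. Groups of 3 are too small for a test of outlying libraries.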
